A study of Mus musculus with 6 samples.

Results

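The genes described here encode 9 proteins of the myelin sheath and of the oligodendrocytes that make it: Mbp, Mag, Mog, Mobp, Cnp, Mal, Cldn11, Opalin and Ermn. They were taken by name from the count table of a single cell survey of the mouse olfactory bulb, in which all 9 were found among 18560 genes. The table was read over 51426 cells that the authors had placed in 38 clusters, from 6 libraries of pooled C57BL/6NJ mice aged 14 weeks. Controls (2 libraries) received no manipulation according to the sample labels, and the study calls them naive, although a passage of it describes the open side of the occluded mice as the control. For the naris-occluded group (2 libraries) a plug had closed a nostril for 6 weeks. Mice of the trained group (2 libraries) had learned to discriminate odors over the same period. They were water deprived and worked for a water reward, and the study describes neither for the controls. Odor training cannot be told apart from water deprivation and reward here. Each library pooled several mice, and all were wild type. Counts of Xist were 0 to 5 in each replicate 1 and 20000 to 27904 in each replicate 2, and those of the Y-linked Ddx3y 1116 to 1201 and 0, so that the replicates of a group differed in sex in the same way.

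Myelin is a stack of oligodendrocyte membrane wrapped around axons. Myelin basic protein (Mbp) and Mobp hold the inner faces of the compacted membrane together. Mag and Mog are membrane proteins of the sheath, and Cldn11 forms the tight junctions between its turns. Cnp is an enzyme of the cytoplasmic channels, Mal a proteolipid of membrane transport, Opalin a membrane protein and Ermn (ermin) a cytoskeletal protein of mature oligodendrocytes. Oligodendrocytes arise from oligodendrocyte precursor cells (OPC), which start to express several of these genes as they commit. Olfactory ensheathing cells (OEC) wrap bundles of olfactory axons without building myelin and come from a separate lineage.

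The libraries held 6705 to 10570 cells each and 11841160 to 17065083 unique molecular identifiers (UMIs), each standing for a captured transcript molecule. The myelinating oligodendrocyte cluster (MyOligo) had 858 cells, 94 to 224 per library, with a median of 3322 UMIs, the OPC cluster had 397 cells with a median of 2901, and the 5 OEC clusters together had 11551 cells with a median of 1753. Their names were checked with marker lists. The summed level of 5 oligodendrocyte markers was 7112 to 8203 CPM (UMIs of the gene relative to all UMIs of the cells, as 1000000 times their ratio) in MyOligo, 306 to 578 in OPC and 624 to 716 in the OEC clusters. Of the 5, Mag, Mog and Mobp are among the 9 genes described here, so that this sum is no separate check on them. The other 2 were Myrf, the transcription factor of myelination, at 214 CPM in MyOligo, 58.5 in OPC and 4.38 in the OEC clusters, and Aspa, an enzyme of acetylaspartate breakdown, at 721, 11.9 and 511, with its highest level in the cluster OEC1. The summed level of 6 precursor markers was 3266 to 4482 in OPC and 143 to 176 in MyOligo. That of 7 ensheathing markers was 36995 to 41844 in the OEC clusters and at most 5487 in either other type. Among these, the precursor marker Cspg4 was highest in the mural cluster Mural2, and the ensheathing marker Sox10 was highest in OPC. Names of clusters are those of the deposited table. Within neurons, microglia, astrocytes, OEC and mesenchymal cells some numbers stand for other clusters elsewhere in the study. Barcodes that occurred in more than 1 library made up 5.75% of cells, and their part in the results was not tested. The clusters were made from the same counts, so levels between them are given as descriptions without a test.

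All 9 genes were highest in MyOligo. Mean levels over the 6 libraries were 9427 ± 584 CPM (SD) for Mbp, 5229 ± 369 for Cnp, 3443 ± 461 for Mobp and 3324 ± 358 for Cldn11. Mal reached 2152 ± 221 CPM, Mag 1862 ± 184, Ermn 1799 ± 72.7, Mog 1376 ± 153 and Opalin 999.7 ± 189. The count is of molecules tagged at their 3′ end, so these levels were not divided by transcript length. Each of the 9 ranged over libraries without touching the range of the next cluster. Together the 9 genes gave 29611 CPM, or a mean of 106 UMIs per MyOligo cell, of which Mbp made up 31.9%, Cnp 17.7%, Mobp 11.6% and Opalin 3.38%. In single MyOligo cells the 9 genes took a median of 2.91% of all UMIs, with 5% of cells under 1.77% and 5% over 3.86%. All 9 were seen together in 612 of 858 cells (71.3%), and 5 cells held 4 or fewer of them, at a median depth of 698 UMIs.

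**Figure D1:**
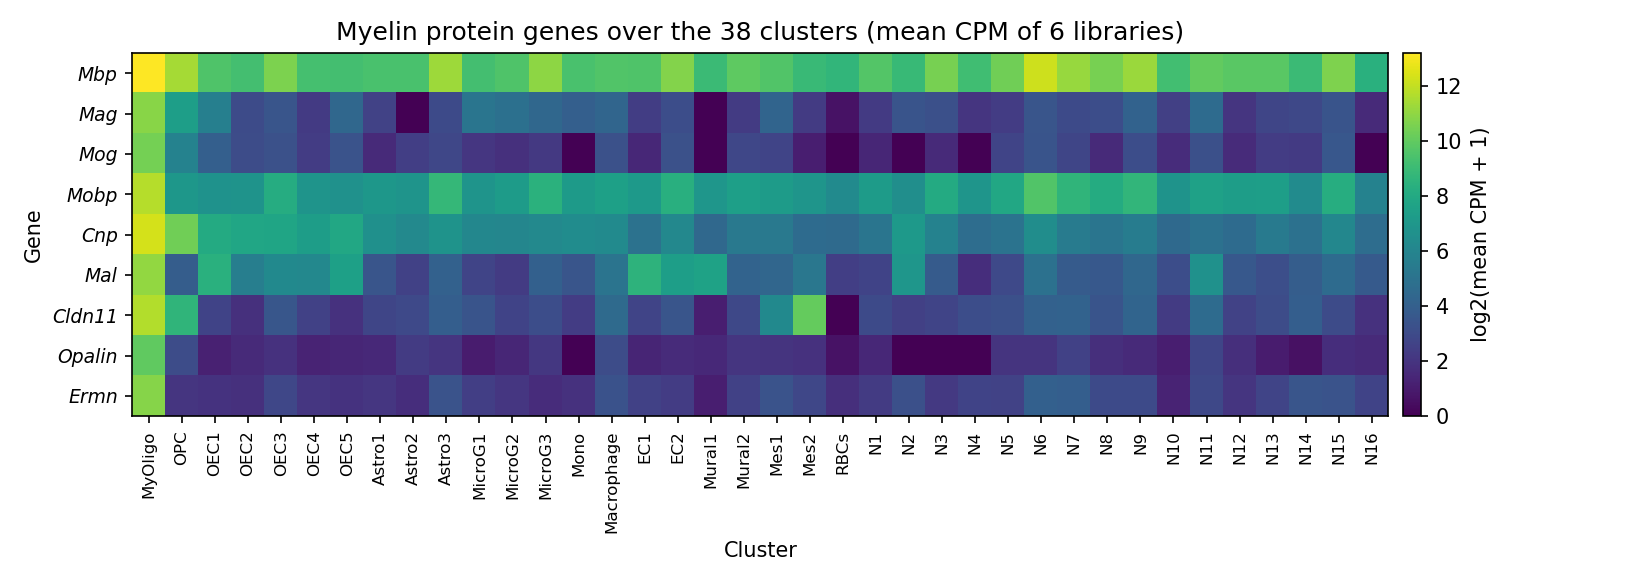
Mean level of the 9 genes in each of the 38 clusters, as log2 of the mean CPM of 6 libraries plus 1 (color). All rows peak in MyOligo, Mbp and Mobp stay visible in every cluster, and Cldn11 has a further peak in Mes2 at 1096 CPM.

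The genes differed in how strictly they marked the cluster. MyOligo cells were 1.68% of all cells and held 3.44% of all UMIs. They held 94.2 ± 2.86% (SD, n = 6 libraries) of the Opalin UMIs, 92.8 ± 2.45% of Ermn, 89.4 ± 2.41% of Mog, 82.6 ± 4.46% of Cldn11 and 82.0 ± 3.61% of Mag. For Cnp the share was 62.1 ± 2.88%, for Mal 51.1 ± 6.48% and for Mobp 40.6 ± 5.79%. For Mbp, the most abundant of the 9, it was 24.96 ± 4.89%, and the rest of its molecules were counted in other cells. Trained replicate 1 gave the lowest share for all 9 genes and also had the lowest share of MyOligo cells, 1.05%.

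**Figure D2:**
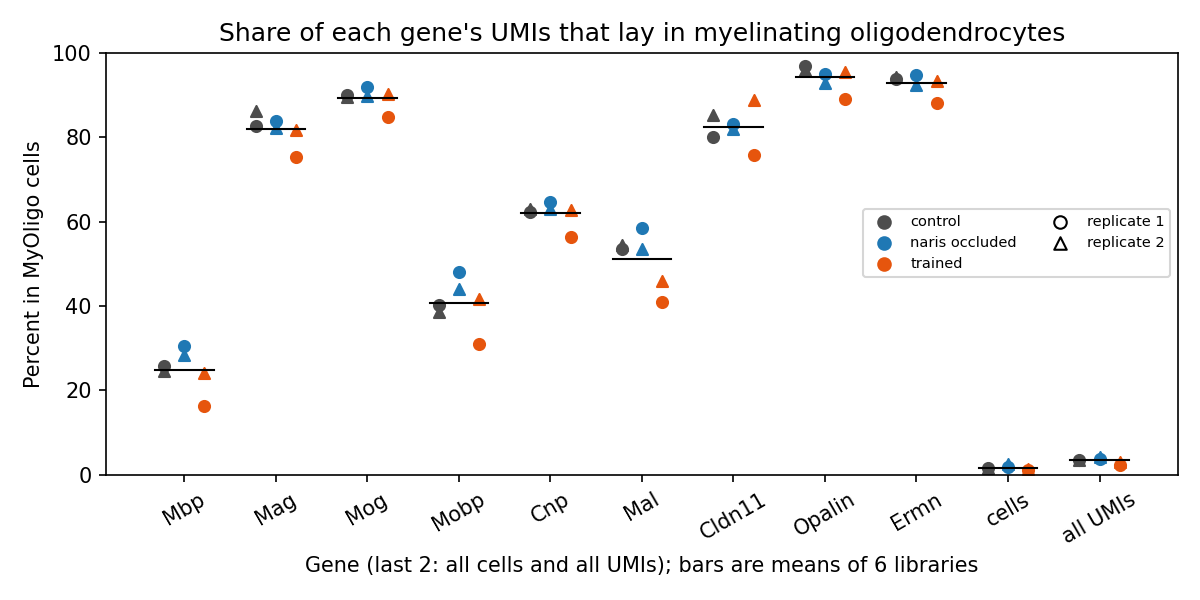
Percent of each gene's UMIs that lay in MyOligo cells, per library (points) with the mean of 6 libraries (black lines), and the same for cells and for all UMIs. Opalin and Ermn lie at 88.1% or more in every library, whereas Mbp lies between 16.3% and 30.6%.

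Among the genes whose pattern over the 38 clusters was most like that of the 9 were A230001M10Rik, Klk6, Sgk2, Cldn14, 1700063D05Rik, Ugt8a, Hapln2, Gm28322 and Qdpr. Their correlation with the mean standardized pattern of the members, on log2(CPM + 1), ran from 0.876 for A230001M10Rik to 0.835 for Qdpr, over 38 clusters that share libraries and depth, among 4045 genes ranked. Ugt8a, which makes the myelin lipid galactosylceramide, stood at 845 CPM in MyOligo. The members themselves, each of which is part of that mean, ran from 0.926 for Mog to 0.592 for Mal. Of a list of 24 other myelin and mature oligodendrocyte genes, 18 were highest in MyOligo, 2 in OPC and 3 in an OEC cluster. Among them Trf, for transferrin, reached 4816 CPM in MyOligo and 47.9 in OPC, and Pllp, for the proteolipid plasmolipin, 1117 and 974.6. Of 8 oligodendrocyte transcription factors, Myrf and Nkx6-2 were highest in MyOligo and 5 were highest in OPC, Sox10 and Olig2 among them.

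The sequences before the annotated starts are shown because the 9 genes shared their highest cluster but differed in OPC, where Mag and Cnp were above neurons, microglia and endothelial cells and Mobp was not. RefSeq's table of starts (GRCm38.p6, the mm10 assembly) matched 8 of the 9 genes; Mbp is not shown. The 250 bases before each start were searched on both strands for ACAAAG, the core bound by Sox factors, and for CTGGNAC, a core of the Myrf site; the 2 motifs do not overlap. The former was in 16.5% and the latter in 16.1% of the 32851 windows of all genes. Of the 8 genes, 4 (Mag, Mobp, Cnp, Opalin) had a match to ACAAAG and 3 (Mag, Cnp, Mog) to CTGGNAC. The Mobp window, at chr9:120149492-120149741 on the plus strand, held 6 matches to ACAAAG, all as its reverse complement, which no other of the 32851 windows reached, and none to CTGGNAC. Cnp, at chr11:100574689-100574938 on the plus strand, and Mag, at chr7:30914923-30915172 on the minus strand, each held 1 match to ACAAAG and 2 to CTGGNAC. Matches are in capitals, 5′ to 3′ on the strand of the gene, and Mag is given before the outermost of its 3 starts. The window before another of these starts, chr7:30914322-30914571, held 0 matches to either motif. Bases after that start, and not those after the displayed start, were found in transcripts of another annotation.
Mobp: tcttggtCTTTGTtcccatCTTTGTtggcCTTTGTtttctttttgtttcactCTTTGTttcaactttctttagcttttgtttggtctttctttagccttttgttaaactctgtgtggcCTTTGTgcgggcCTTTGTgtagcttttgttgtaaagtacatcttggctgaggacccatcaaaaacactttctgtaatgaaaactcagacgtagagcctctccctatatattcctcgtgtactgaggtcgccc
Cnp: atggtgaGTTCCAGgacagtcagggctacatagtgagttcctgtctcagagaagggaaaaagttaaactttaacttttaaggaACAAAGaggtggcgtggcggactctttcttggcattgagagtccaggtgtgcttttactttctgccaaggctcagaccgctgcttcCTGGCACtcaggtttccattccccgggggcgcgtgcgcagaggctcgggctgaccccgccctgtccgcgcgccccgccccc
Mag: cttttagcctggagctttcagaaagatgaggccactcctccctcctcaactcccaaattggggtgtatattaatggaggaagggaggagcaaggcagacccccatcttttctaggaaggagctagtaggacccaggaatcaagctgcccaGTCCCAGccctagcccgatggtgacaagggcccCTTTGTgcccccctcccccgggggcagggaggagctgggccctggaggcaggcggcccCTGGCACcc

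Outside MyOligo and OPC, Mbp and Mobp were counted in every cluster. Mbp ran from 1.30 to 3.34 UMIs per cell over 36 clusters whose median depth ran from 655 to 4028.5 UMIs. In 34 of them, leaving out N6 and N11, which were set aside after their values of 3.34 and 2.73 were seen, it kept to between 1.30 and 2.04 UMIs per cell, a 1.57-fold range, whereas its CPM in the same clusters ran from 334 to 2505, a 7.50-fold range. Mobp kept to 0.227 to 0.512 UMIs per cell in these clusters. Red blood cells were among them. The ratio of Mbp to Mobp was 5.60 ± 0.20 in neurons, 5.14 ± 0.20 in microglia, 5.38 ± 0.47 in endothelial cells and 5.90 ± 0.32 in the OEC clusters (SD, n = 6), against 2.76 ± 0.22 in MyOligo. The highest cluster after MyOligo for Mbp was N6, at 4731 ± 619 CPM and 3.34 UMIs per cell, with the lowest median depth of all clusters, 655 UMIs. Free RNA in droplets can give UMIs of a gene in cells that do not express it, and its part in these values was not tested. Levels in neurons, microglia and endothelial cells are therefore given beside those in OPC and OEC.

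**Figure D3:**
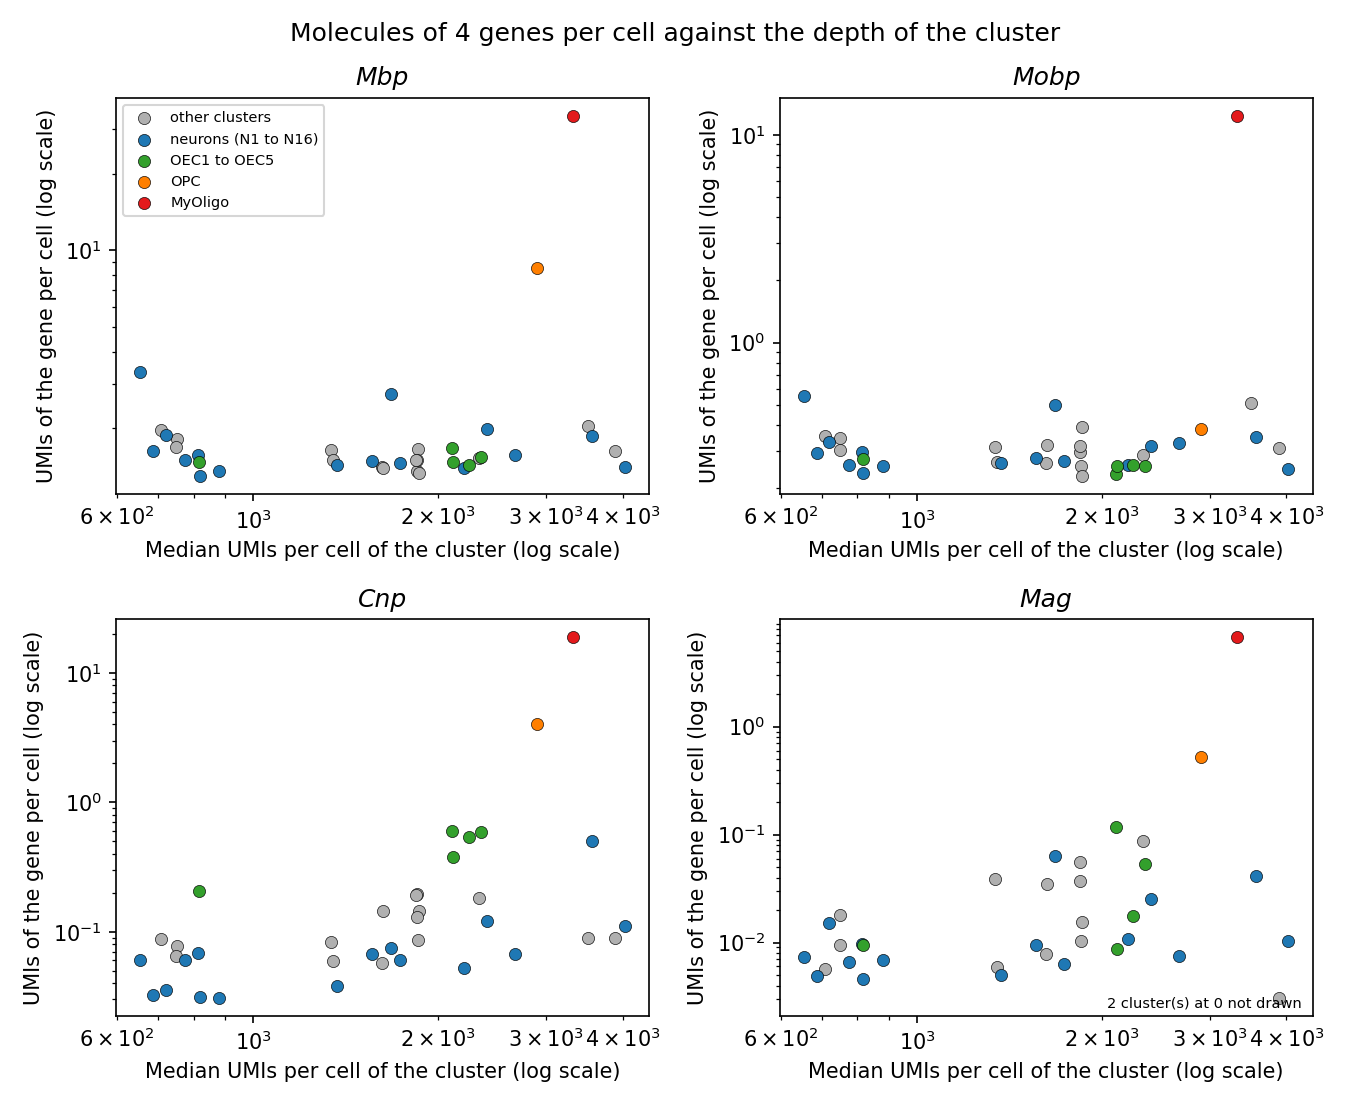
UMIs of Mbp, Mobp, Cnp and Mag per cell (log scale) against the median depth of each cluster (log scale), 1 point per cluster. Mbp lies between 1.30 and 2.04 UMIs per cell in the clusters other than MyOligo, OPC, N6 and N11 at every depth, and Cnp is at 0.208 to 0.599 UMIs per cell in the OEC clusters, a range that holds the neuron cluster N2 at 0.507.

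The other 7 genes were low in most clusters outside MyOligo and OPC. Medians over the 36 clusters were 50.5 CPM for Cnp, 15.8 for Mal, 7.02 for Mag, 6.95 for Cldn11, 4.86 for Ermn, 3.83 for Mog and 1.95 for Opalin. Opalin stayed under 10 CPM in all 36, and Ermn and Mog passed 10 CPM in 3 and 2 of them. Outside MyOligo, 11 of 50568 cells held at least 3 of Mag, Mog, Opalin and Ermn, against 821 of 858 in MyOligo. The 11 lay in N11 (3 cells), OPC (3), Mes1 (2), Macrophage, N13 and N14 (1 each), with a median depth of 7459 UMIs where the clusters together had 1331.

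Mal and Cldn11 were also high in vascular and mesenchymal clusters. Mal reached 364 ± 114 CPM in the endothelial cluster EC1, with 41.8% of cells holding a UMI, and 196 ± 76.2 in the mural cluster Mural1. Cldn11 reached 1096 ± 381 CPM in the mesenchymal cluster Mes2, of 230 cells, where 63.0% of cells held a UMI, against 1.15% of neurons at a lower depth (median 1857.5 and 1013 UMIs). In the same cluster Mbp was at 498 ± 140 CPM and Mag at 3.95, and Mes1 had 75.2 ± 25.1 CPM of Cldn11. Mag stood at 34.3 ± 8.69 and 28.8 ± 8.83 CPM in the microglial clusters MicroG1 and MicroG2, where Mog, at 2.86 CPM in these microglia together, was at or under its 4.11 in neurons.

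In OPC, 6 of the 9 genes exceeded all 3 reference groups (neurons, microglia and endothelial cells of the same library) in all 6 libraries: Mbp, Mag, Mog, Cnp, Cldn11 and Opalin. Mbp was at 2710 ± 445 CPM, 2.18 times its level in neurons, and at 8.50 UMIs per cell against 1.75, although its range overlapped that of the astrocyte cluster Astro3, at 2505 ± 381 CPM. Cnp was at 1291 ± 206 CPM, 34.6 times neurons, and Cldn11 at 391 ± 101, 40.3 times. Mag was at 167 ± 55.7 CPM and Mog at 56.6 ± 20.7. Opalin rested on 9 UMIs in all, and it was no longer above every reference group when cells under 1000 UMIs were left out, when the 11 cells above were, or in the mean over single cells and after thinning. The other 3 were not above neurons in CPM, Mobp at 124 ± 37.7 against 222, Mal at 14.01 against 18.5 and Ermn at 3.10 against 6.02. Counted per cell, in cells deeper than neurons, Mobp was 1.22 times and Mal 1.71 times as high as in neurons (0.382 against 0.314 and 0.0457 against 0.0268 UMIs), and Ermn was 1.00 times; by this measure too the same 6 genes exceeded all 3 reference groups in every library. The ratio of Mbp to Mobp was 23.8 ± 9.02 in OPC, and in every library it was at least 14.9, above the 5.43 to 5.94 of neurons and the 2.43 to 2.99 of MyOligo. The ranges of OPC and MyOligo did not overlap for any of the 9.

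**Figure D4:**
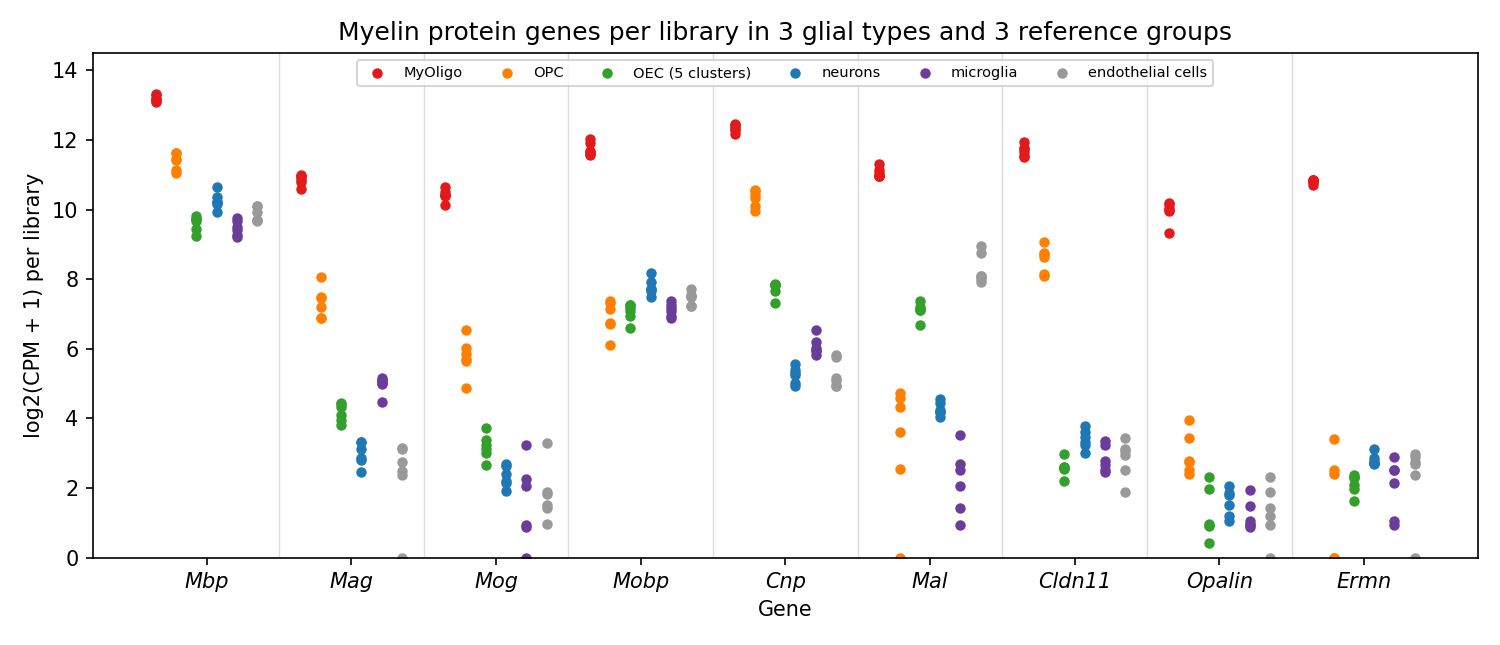
Level of each gene per library, as log2(CPM + 1), in MyOligo, OPC, the 5 OEC clusters summed and 3 reference groups, 6 points per type. Cnp, Cldn11, Mag and Mog form a middle step in OPC, and Mobp, Mal and Ermn do not. Cnp is the only gene above all 3 reference groups in all 6 OEC libraries, and Mal stands above neurons and microglia in each.

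The genes were spread unevenly over the precursors. The median OPC held 2 UMIs of Mbp and 0 of Cnp, Mag, Mog and Cldn11, and the tenth of cells with most Mbp held 77.3% of its UMIs, against 22.7% in MyOligo. Every cell with at least 500 UMIs was thinned to 500, and shallower cells were left out of this measure. Then 39.2% of OPC and 40.7% of neurons were expected to hold a UMI of Mbp, so in this measure Mbp was not above neurons. At least 10 UMIs of Mbp were present in 49 of 397 OPC (12.3%), in 2.03% of neurons and in 1.13% of OEC. This limit was set after the values were seen. The 49 cells held 90.2% of the Mag UMIs of the cluster, 92.7% of Cldn11, 85.3% of Mog and 66.2% of Cnp. In these cells Cnp was at 4408 CPM, Cldn11 at 1881, Mag at 786 and Mog at 246, whereas Mobp was at 191, Opalin at 29.7, Mal at 12.7 and Ermn at 8.49, compared with 3443, 999.7, 2152 and 1799 in MyOligo. The other 348 cells had 545 CPM of Cnp and 35.9 of Cldn11, and 655 of Mbp, which the limit itself holds down.

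The 49 cells also differed in genes of the lineage. Enpp6, a phosphodiesterase of newly formed oligodendrocytes, was at 612 CPM against 53.4 in the other OPC, and Bmp4, a growth factor of committed precursors, at 595 against 95.5. Pdgfra, the growth factor receptor that defines precursors, was at 119 against 923, and the precursor proteoglycan Cspg4 at 51.0 against 302. Gpr17 was at 1121 against 782 and Neu4 at 420 against 428. The 49 cells were deeper, with a median of 4588 UMIs against 2815.5, and they made up 9.41% to 16.9% of OPC per library. Cells were picked by their Mbp count, so these values describe them and no test was made. A sort on another measure, whether a cell held a UMI of Gpr17, Bmp4, Neu4 or Enpp6 (295 of 397 cells), followed depth closely (median 3388 against 906 UMIs), and in cells with such a UMI the CPM of Mog was higher in 6 of 6 libraries, that of Mag in 5, of Cnp and Cldn11 in 4, of Mbp in 3 and of Mobp in 2. After thinning to 500 UMIs, fewer of these cells than of the others held a UMI of the gene for Mbp (35.1% against 51.1%), Cldn11 (8.09% against 11.1%), Mag (4.55% against 6.95%) and Mobp (6.85% against 12.9%), and the shares were 24.9% against 24.1% for Cnp and 1.77% against 1.53% for Mog.

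Over the 5 OEC clusters together 1 of the 9 genes, Cnp, exceeded all 3 reference groups in all 6 libraries. It was at 211 ± 28.4 CPM over the 5 clusters, between 162 ± 24.2 in OEC4 and 264 ± 34.4 in OEC1, against 37.3 in neurons, 67.7 in microglia and 39.1 in endothelial cells. A UMI of Cnp was present in 30.2% of OEC and 4.69% of neurons, at median depths of 1753 and 1013, and after thinning in 9.63% and 1.98%. Mal was at 138 ± 20.5 CPM, above neurons (18.5) and microglia (4.40) in every library and 7.43 times neurons. It was under the 328 of endothelial cells, which were themselves 17.7 times neurons. The count of 1 therefore does not tell whether Mal was above free RNA in these cells. Mal varied among the clusters, from 336 ± 32.3 in OEC1 and 180 ± 43.6 in OEC5 to 49.0 ± 19.5 in OEC2. OEC1 also had the highest Mag, 51.0 ± 8.80 CPM with 9.37% of cells holding a UMI, and the highest Mog, 15.2 ± 4.48, of the 5. Its lowest Mag in a library, 37.9 CPM, was above all 3 reference groups in every library. Against the microglial cluster MicroG1 alone, at 34.3 ± 8.69 CPM, Mag in OEC1 was higher in 5 of 6 libraries, and the ranges overlapped. Mag over all 5 was at 17.3 CPM, above neurons and endothelial cells in every library and 2.44 times neurons, but under the 30.7 of microglia, which were themselves 4.32 times neurons. Mog, at 8.34 ± 2.35 CPM, passed all 3 reference groups in 5 of 6 libraries, naris-occluded replicate 2 being the exception. Mbp, Mobp, Cldn11, Opalin and Ermn were at or under their level in neurons, with ratios of 0.521 to 0.796.

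Changes with occlusion and with training were tested on counts summed per library in each of the 3 types. In MyOligo no member passed the test under either manipulation. In edgeR's quasi-likelihood test with Benjamini-Hochberg adjustment over 6587 genes, 0 of 9 were called under occlusion, where 0.0759% of all genes were, and 0 of 9 under training, where 0.121% were. At an unadjusted p under 0.05 these counts were 0 and 2, where 3.81% and 5.19% of all genes passed, and DESeq2 called 0 of 9 in both. Under occlusion the log2 fold changes of the 9 ran from −0.06 to 0.11, with 95% intervals that lay within −0.32 and 0.36, and for 0 of 9 did both libraries lie on 1 side of the controls, as they did for 32% of all genes. The 2 libraries of a group differ in their pool of mice and in sex. The p-values measure the spread between 2 such pools a group, with sex left in that spread. Fewer transcripts per cell cannot be told apart from a changed mix of cells within the cluster.

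Among the trained libraries, Mobp was at 4367 and 3963 CPM (over tested genes, scaled by TMM), both above the controls at 3132 and 3372. The log2 fold change was 0.36 (SE 0.11) with an adjusted p of 0.534 in edgeR. Mbp was at 10621 and 10365 CPM against 9195 and 9800, a log2 fold change of 0.14 (SE 0.11) with an adjusted p of 0.947. Opalin lay lower, at 670 and 1025 CPM against 1036 and 1195, and its log2 fold change was −0.39 (SE 0.15) with an adjusted p of 0.830. Both trained libraries were outside the controls for these 3 of 9 genes, where 34.9% of all genes tested had both on 1 side. The Opalin value rested on trained replicate 1: its log2 fold change was −0.12 without that library, with an adjusted p of 0.965, and −0.74 without trained replicate 2, with an adjusted p of 0.00194. In such fits the trained group is 1 library, assumed to vary like the others. Trained replicate 1 had the lowest median depth over all its cells, 1028 UMIs, where the other libraries had 1344.5 to 1723.5. Its mean mitochondrial share was the highest, 17.1%, where theirs were 11.6% to 15.1%. In MyOligo its median share was 9.18%, against 8.22% and 7.96% in the controls. The part of these differences in values that lean on this library, here or below, was not tested. The summed level of 7 ensheathing markers in MyOligo was 4329 and 4363 CPM in the trained libraries and 5487 and 5338 in the controls. That of 4 neuron markers was 391 and 392 against 329 and 252, and that of 6 precursor markers 143 and 143 against 158 and 170. For the 5 oligodendrocyte markers, 3 of them members, it was 7679 and 8203 against 7184 and 7672. For 3 blood markers it was 36.6 and 46.6 against 124 and 57.3. Sums of astrocyte, microglial, endothelial and mesenchymal markers overlapped the controls. The part of these sums in the fold changes was not tested. Of 23 tested genes among the 24 other myelin genes 0 were called under training, with a median log2 fold change of −0.06, beside 0.01 over all tested genes.

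Of 8 genes of committed precursors and newly formed oligodendrocytes, 5 (Enpp6, Fyn, Tmem2, Rras2, Itpr2) passed the filter in MyOligo, and Gpr17, Bmp4 and Neu4 did not. The filter admitted Tmem2 through the 2 trained libraries alone and Itpr2 through these and 1 naris-occluded library, so no count, median or test of the 5 is given. Tmem2, a surface hyaluronidase, was at 35.3 and 50.7 CPM in the trained libraries and 13.6 and 6.70 in the controls. Rras2, a small GTPase, was at 67.6 and 42.2 against 20.5 and 17.9. Over all clusters Tmem2 was highest in the neuron cluster N1 and Rras2 in the endothelial cluster EC1. The part of neuron and precursor markers, which differed between these libraries, was not tested. Enpp6 was at 61.8 and 73.2 against 56.3 and 60.3. Fyn overlapped the controls, at 44.1 and 64.8 after training against 40.9 and 46.9. After occlusion Tmem2 was at 1.77 and 6.76 CPM, Rras2 at 5.32 and 23.7, Fyn at 30.1 and 43.9 and Enpp6 at 76.3 and 77.7.

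Under occlusion the 5 genes called in MyOligo were S100a5, which olfactory sensory neurons express, Atp1b1, a subunit of the sodium pump, and the globin genes Hbb-bs, Hba-a1 and Hba-a2. S100a5 and Atp1b1 were lower, by log2 fold changes of −1.59 and −1.02, and the globins were higher. Blood markers summed to 1927 CPM in MyOligo of naris-occluded replicate 2 and to between 36.6 and 124 in the other 5 libraries. None of the 5 is a myelin gene, and DESeq2 and a fit on cells of at least 1000 UMIs each called 0 genes in this comparison.

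In OPC 6 members passed the filter on low counts; Mal, Opalin and Ermn did not. Of the 6, edgeR called 0 under occlusion, where 0.0868% of 4609 genes were called (S100a5, Gm42418, Fos and Jun), and 0 under training, where 0% were and 226 genes had an unadjusted p under 0.05. At that unadjusted limit the members counted 2 in each, where 4.66% and 4.9% of all genes passed. DESeq2 called 0 members in each and 0 genes under occlusion, and with the replicate number as a block 3 genes were called under training, 0 of them members. Cldn11 was at 315 and 323 CPM in the trained libraries, below the controls at 629 and 460, and its log2 fold change was −0.78 (SE 0.19) with an adjusted p of 0.301. Mbp was at 2471 and 3146 CPM after training and 2509 and 3184 after occlusion, below the controls at 3696 and 3690 in both, with log2 fold changes of −0.40 and −0.37 (SE 0.15 each) and adjusted p of 0.905 and 0.958. The former was −0.24 without trained replicate 1 and −0.56 without trained replicate 2, and the latter −0.22 without naris-occluded replicate 1 and −0.57 without naris-occluded replicate 2. Cnp was at 1166 and 1473 after training against 1610 and 1717, a log2 fold change of −0.34 (SE 0.18) with an adjusted p of 0.966, and of −0.18 without trained replicate 1.

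Mobp in OPC, where its CPM was not above that of neurons, was at 115 and 121 CPM after occlusion and 166 and 77.5 after training, against 183 and 193. Mog after occlusion was at 70.4 and 105 CPM against 59.5 and 56.8, higher in both libraries, on 68 UMIs in all libraries together. Under occlusion 3 of the 6 members (Mbp, Mog, Mobp) lay on 1 side of the controls in both libraries, as did 34.6% of all genes, and under training 4 did, beside 34.3%. Under occlusion 5 of the 6 members had negative log2 fold changes, with a median of −0.19. Under training all 6 members had negative log2 fold changes, with a median of −0.49 beside 0.00 over all tested genes. In 4 of 6 both trained libraries were below the controls, as in 17.3% of all genes tested. The 6 were counted in the same cells and libraries, so they are not replicates. Of 16 tested genes among the 24 other myelin genes, 9 were negative and 7 positive under training, with a median of −0.08. In OPC of the trained libraries precursor markers summed to 4004 and 3782 CPM against 3266 and 3564 in the controls. Neuron markers summed to 486 and 510 against 361 and 382. The cells with at least 10 UMIs of Mbp, which held most Cldn11 and Mag, were few. In the trained libraries they were 8 and 5 cells (9.41% and 10.0% of OPC). In the naris-occluded they were 7 and 10 (14.6% and 13.0%) and in the controls 8 and 11 (11.1% and 16.9%). The part of these values in the fold changes was not tested. The difference in response to training between OPC and MyOligo was called for 0 of 6 members, where 0.048% of 4167 genes were, and that in response to occlusion between OEC and OPC for 0 of 6, where 0% were. At an unadjusted p under 0.05 these counts were 3 (Mbp, Mobp, Cldn11) and 1 (Mbp), where 4.9% and 5.45% of all genes passed, and no other tool was run for them. These comparisons were picked from those fitted because a member lay above the controls in 1 type and below in the other. The unadjusted counts are thus partly fixed by that choice. Among the comparisons not picked, the lowest adjusted p of a member in edgeR was 0.288 (Mbp, training, OPC against OEC).

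In the OEC clusters all 9 passed the filter on low counts, Opalin through the 2 naris-occluded libraries alone. EdgeR called 0 of the 8 members other than Opalin under occlusion, where 0.00828% of 12077 genes were called (S100a5 alone, which DESeq2 did not call). Under training it called 0 of these 8, where 0% of all genes were called. In that comparison 798 genes had an unadjusted p under 0.05 and DESeq2 called 20 genes. With the replicate number as a block, which follows sex in these libraries, 14 genes were called under training and 0 of the same 8 members. Under training 1 member, Cnp, passed the unadjusted limit, where 6.61% of all genes did, and under occlusion 0 of the 8 members other than Opalin did, where 4.12% did. DESeq2 called 0 of these 8 under occlusion and 0 of these 8 under training. Cnp, the gene above all 3 reference groups in these cells, was at 159 and 203 CPM in the trained libraries against 231 and 230 in the controls, a log2 fold change of −0.35 (SE 0.11) with an adjusted p of 0.418. Without trained replicate 1 it was −0.18 with an adjusted p of 0.866, and without trained replicate 2 it was −0.52 with an adjusted p of 0.0321, each from a single trained library. After occlusion Cnp was at 223 and 225 CPM, a log2 fold change of −0.04 (SE 0.11) and an interval from −0.27 to 0.19. Mal was at 145 and 164 CPM after occlusion against 137 and 141, with a log2 fold change of 0.15 (SE 0.12), of 0.24 without naris-occluded replicate 1 and 0.07 without naris-occluded replicate 2.

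Mag in the OEC clusters was at 20.6 and 18.9 CPM after occlusion against 16.1 and 13.3, and Mog at 6.95 and 7.59 against 9.36 and 12.4, with Mog at 5.42 and 8.51 after training. Opalin was at 2.91 and 3.92 CPM after occlusion, 0.90 and 0.33 after training and 0.96 and 0.91 in the controls, on 40 UMIs in all 6 libraries. Since the filter admitted it through the group where it was high, no test of it is given. Both libraries lay outside the controls for 4 of the other 8 genes under occlusion (Mag, Mog, Cnp, Mal) and for 2 of them under training (Mog, Cnp), beside 34.9% and 36.4% of all genes tested.

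**Figure D5:**
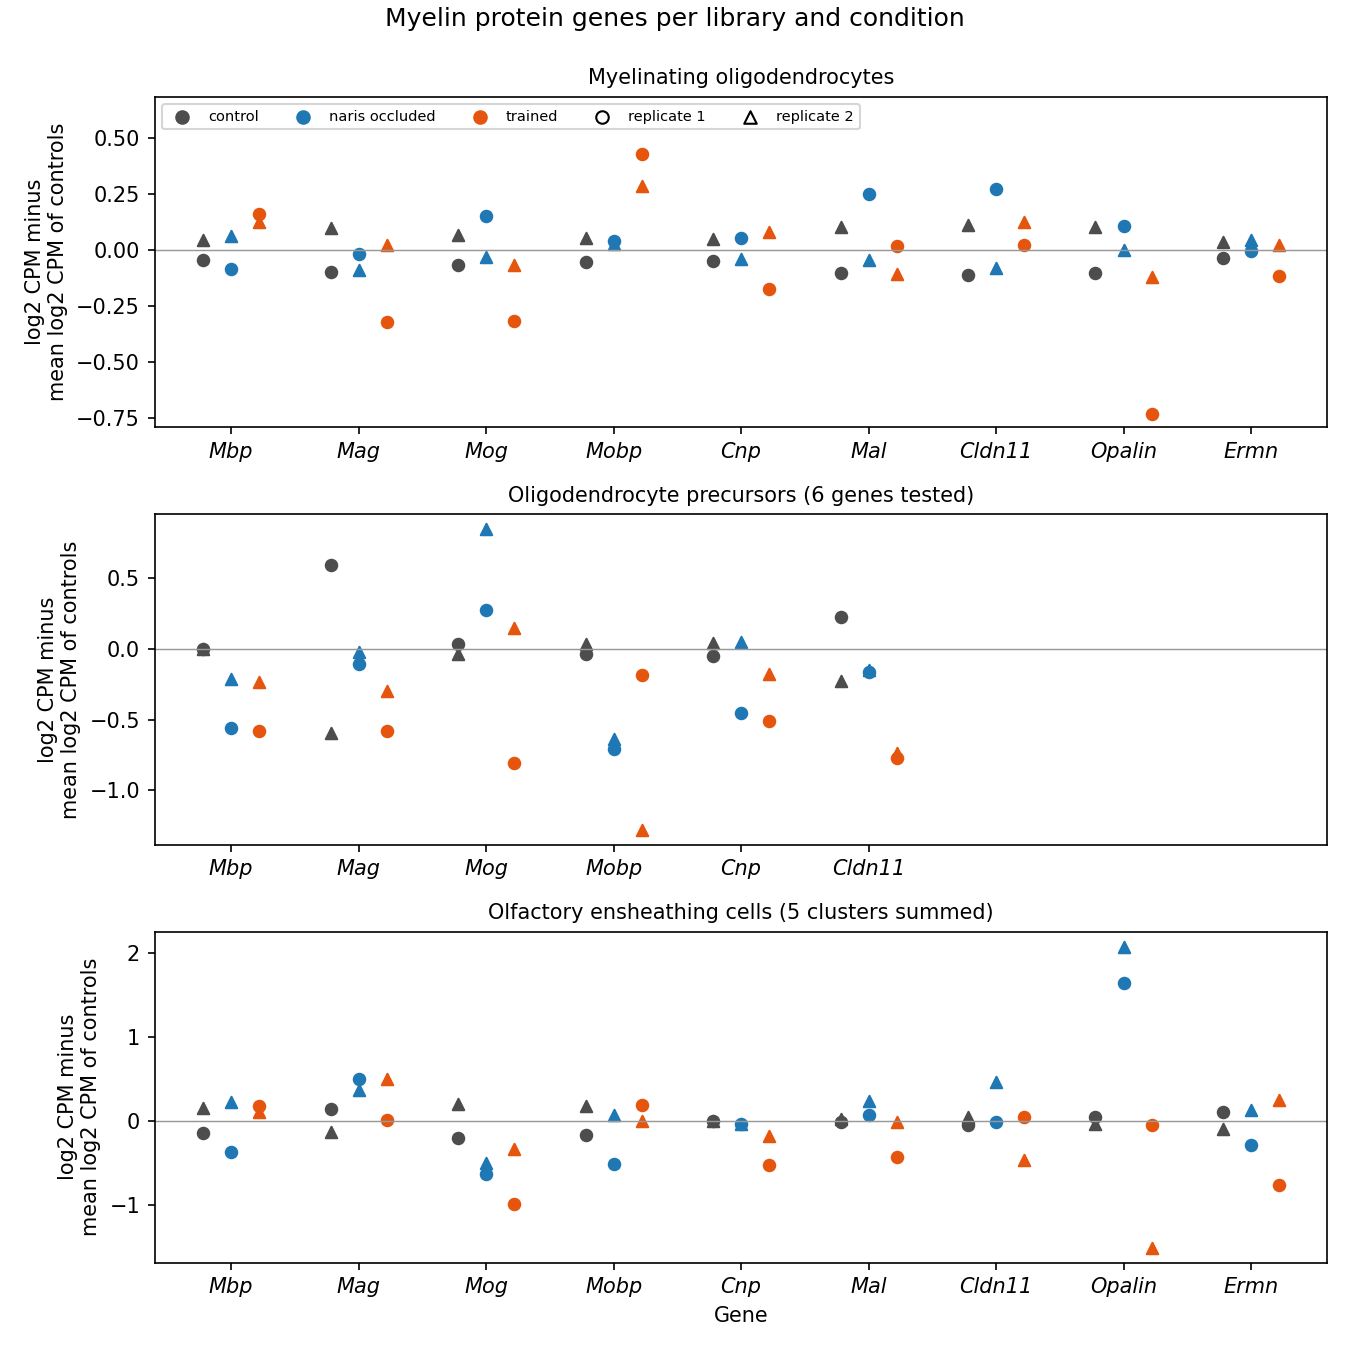
Log2 CPM of each tested gene per library minus the mean log2 CPM of the 2 control libraries, in MyOligo, OPC and the OEC clusters, with color for the group and shape for the replicate. Trained libraries lie above the controls for Mobp in MyOligo (log2 fold change 0.36) and below them for Cldn11 in OPC (−0.78), and no gene passed the adjusted test.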

How the data were processed

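The deposited UMI counts per gene and cell (10x Genomics 3′ libraries) and the authors' table of clusters were used. Per the submitters' processing notes, the authors used Cell Ranger 2.0.0, Seurat 2.2.1 and the mm10 assembly, and their cells had at least 200 genes. The deposited table also gives the mitochondrial fraction of each cell, made by the authors. Cluster names follow the deposited table; the study's list of cluster sizes exchanges the numbers of Astro2 and Astro3, Mes1 and Mes2, MicroG1 and MicroG2, OEC2 and OEC5, and OEC3 and OEC4, and numbers most neuron clusters differently. Libraries were taken from the table's library column, since the name starts of 17275 cells of the trained libraries were reversed against it. Barcodes without a cluster (1123 of 52549) were left out of all comparisons. No doublet caller was run.

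Counts were summed per cluster and library and given as CPM, mean ± SD of 6 libraries. Neurons (16 clusters), microglia (MicroG1, MicroG2) and endothelial cells (EC1, EC2) served as reference groups for free RNA. Endothelial cells were at 17.7 times neurons for Mal and microglia at 4.32 times for Mag, so for these genes they do not stand for free RNA alone. Summed counts were tested with edgeR 4.0.16 (R 4.3.3), quasi-likelihood test, TMM scaling and Benjamini-Hochberg adjustment over all genes past edgeR's filter, at 0.05. All 6 libraries shared 1 fit. DESeq2 1.42.0 and the other alternatives are given in the closing section. On simulated data, 36.5% of 200 genes changed by 1 on the log2 scale were recovered in MyOligo (6587 genes), 32.0% in OPC (4609) and 66.0% in OEC (12077), for the trained comparison. For the difference between MyOligo and OPC under training, 17.0% were recovered (4167 genes). The 200 genes were drawn at random from all those tested, so these rates do not stand for the members in particular. The named genes were the 9 members, 2 to 4 of each list in list order or as the highest and lowest, the 10 genes most like the members among those with at least 100 UMIs in MyOligo, and genes called where 5 or fewer were. Some genes that this rule names are not reported here. The members and lists were chosen with earlier results of these data known.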

Additional observations from a re-analysis of the deposited data

Results flagged for a closer look

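For Mbp and Mobp, both trained libraries lay above the controls in MyOligo and below them in OPC. Mobp in OPC, at 124 CPM on 153 UMIs in all, was not above the 222 CPM of neurons. The log2 fold change in OPC minus that in MyOligo was −0.54 (SE 0.15) for Mbp, with an adjusted p of 0.341 in edgeR, and −0.95 (SE 0.30) for Mobp, with an adjusted p of 0.555, in a fit in which 0.048% of 4167 genes were called. Mog under occlusion was higher in both libraries of OPC and lower in both of the OEC clusters, a difference of −1.14 (SE 0.58) with an adjusted p of 0.917, where 0% of 4534 genes were called. The values for Mobp and Mog rest on single libraries. The log2 fold change of Mobp in OPC under training was −0.59, −1.28 without trained replicate 1 and −0.17 without trained replicate 2. That of Mog in OPC under occlusion was 0.60, and 0.26 without naris-occluded replicate 2, and that of Mog in the OEC clusters was −0.57, and −0.36 without control replicate 2. The 3 differences were picked because the libraries lay on opposite sides of the controls, so their size is no separate support. None of the 3 passed the adjusted test.

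The 1123 barcodes without a cluster held the 9 genes at a summed 1002 CPM, against 2394 in all annotated cells. Mbp made up most of it, at 677 CPM and 1.82 UMIs per barcode, and Mag was at 15.6 CPM against 77.9.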

How the results depend on the processing

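All 9 members were highest in MyOligo under each alternative for levels. The number above the reference groups in OEC rose from 1 to 2, with Mog, for cells of at least 1000 UMIs, for the 2 control libraries and for UMIs per cell (chosen after seeing the data), and was 1 to 2 leaving out a library. The number in OPC was 4 to 6. No member was called under any alternative with all replicates, leaving Opalin in OEC aside. Opalin in OEC did not pass the filter without naris-occluded replicate 2. Leaving out a replicate gave 0 to 1 in MyOligo and 0 to 1 in OEC under training, both calls arising without trained replicate 2 (Opalin, Cnp). Of the 18 member fold changes without overlap, Opalin in OEC included, 0 changed sign. They were picked because both libraries lay on 1 side of both controls, so this was largely fixed in advance. Of the other 30, 27 changed sign in some alternative.

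Counts of all genes moved more. Without the filter on low counts they were 11 and 15 in MyOligo (occlusion, training; 5 and 8 in the report), 4 in OPC under training and 50 and 147 in OEC. DESeq2 gave 0 and 1 in MyOligo, 0 in OPC under occlusion, and 0 and 20 in OEC. Cells of at least 1000 UMIs gave 0 and 5 in MyOligo, 1 in OPC under training and 2 in OEC under training. With only the 4 libraries compared, OPC under occlusion had 1 and OEC under training 1. Leaving out a replicate gave 5 to 17 and 3 to 31 in MyOligo, 1 to 7 and 0 to 2 in OPC, and 0 to 1 and 0 to 109 in OEC, the last without trained replicate 2. The cause was not tested.

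The replicate number as a block gave 3 genes in OPC and 14 in OEC under training (0 without the block) and called 0 members. Same-numbered libraries deviated together with r of 0.0657 to 0.248, from 0.164 in OEC and at most 0.105 in the other types. No label pairs them, but by Xist and Ddx3y the number follows sex, so the block is also one for sex. With 2 libraries a group and 48 to 85 OPC per library, low genes rest on few UMIs.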
